A study of Mus musculus with 9 samples.

Results

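The nuclei described here are 957 of 33000 barcodes from 9 libraries of mouse heart ventricle, chosen for RNA of fibroblast genes together with RNA of genes used in cell division. A barcode had to hold at least 500 unique molecular identifiers (UMIs, the tags that mark single captured RNA molecules) outside the mitochondrially encoded genes, with Malat1, an RNA retained in nuclei, at 1.5% or more of them. It had to hold at least 4 UMIs summed over 9 fibroblast genes (Abca8a, Kcnt2, Pdgfra, Col1a2, Col3a1, Dcn, Tenm3, Antxr1 and Adamts12), and at most 2 over 5 genes of endothelial, endocardial and mural cells (Flt1, Ptprb, Nrg1, Notch3 and Kcnj8). Of 27103 barcodes with 500 UMIs, 7746 met these conditions and are called fibroblast-rule nuclei. The 957 cycling nuclei also held at least 2 UMIs summed over 8 cell cycle genes (Mki67, Top2a, Ect2, Kif15, Knl1, Esco2, Neil3 and Iqgap3), and the other 6789 are called non-cycling. Barcodes of KO P10 library 2 that were also present in KO P10 library 1 were left out. The members were chosen by RNA levels measured in these same nuclei, so the levels of the 23 rule genes, including the markers Pdgfra, Col1a2, Top2a, Neil3 and Mki67, are given as a description.

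RNA of single nuclei was measured by sNucDrop-seq, a droplet method that pairs each nucleus with a barcoded bead, in ventricles of C57BL6/J mice. KO P10 mice, taken at postnatal days 9 to 10, were ERRalphaKO/ERRgammaKO, Ctrl P10 mice of the same age were ERRalphaHet/ERRgammaWT, and Ctrl P6 mice, taken at postnatal day 6, were ERRalphaHet/ERRgammaWT, with 3 libraries in each group. All controls therefore carried 1 intact copy of ERRα, and no group was wild type for it. The labels used here name neither a Cre driver nor the deleted part of either gene, give no sex, and do not say which ventricles were processed fresh and which frozen, or whether each library is a different animal, so p-values measure the spread between libraries only. ERRα and ERRγ (Esrra and Esrrg) are nuclear receptors that activate genes of mitochondrial energy metabolism, and the comparisons asked how the cycling nuclei differed between the genotypes and between the earlier and later control stage.

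Cardiac fibroblasts lay down and remodel the collagen-rich matrix of the heart, and they multiply in the early postnatal weeks as the ventricles grow. A dividing cell copies its DNA in S phase under E2F factors, which switch on replication enzymes, and then in G2 phase switches on kinesins, kinetochore proteins and cytokinesis factors. Many of these later genes are held silent in resting cells by the DREAM complex, whose MuvB core can bind a promoter element called CHR, and are activated with B-MYB, FOXM1 and the CCAAT-binding factor NF-Y.

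The promoters of 4 mitotic genes that were not part of the rule, and whose levels in the cycling nuclei are given further on, are shown because they hold these elements in different arrangements. Each is the RefSeq sequence of GRCm38.p6 from 250 bases before to 50 bases after the transcription start, 300 bases in all, and capitals mark TTTGAA, the common form of CHR, and CCAAT, on either strand (TTCAAA and ATTGG in reverse). No 2 of the marked matches overlap. The Ckap2 promoter (chr8:22185770-22186069, minus strand) holds TTTGAA at position -101 and ATTGG at -20, counted from the start. The Cenpe promoter (chr3:135212313-135212612, plus strand) holds CCAAT at -12 and no TTTGAA. The Cenpf promoter (chr1:189688037-189688336, minus strand) holds TTTGAA at 2 and CCAAT at -132 and -71. The Kif23 promoter (chr9:61946750-61947049, minus strand) holds ATTGG at -7 and TTTGAA at 2.
Ckap2: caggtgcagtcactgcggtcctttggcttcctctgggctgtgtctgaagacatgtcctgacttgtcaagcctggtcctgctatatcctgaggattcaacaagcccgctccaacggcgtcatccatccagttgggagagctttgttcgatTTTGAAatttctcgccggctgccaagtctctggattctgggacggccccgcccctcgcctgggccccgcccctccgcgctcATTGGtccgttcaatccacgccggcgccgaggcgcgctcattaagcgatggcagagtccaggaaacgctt
Cenpe: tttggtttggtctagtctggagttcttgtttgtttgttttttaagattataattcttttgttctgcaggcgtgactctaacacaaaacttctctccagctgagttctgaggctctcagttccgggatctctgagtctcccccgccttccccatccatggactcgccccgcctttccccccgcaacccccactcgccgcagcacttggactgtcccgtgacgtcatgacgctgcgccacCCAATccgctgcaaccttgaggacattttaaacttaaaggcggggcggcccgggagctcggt
Cenpf: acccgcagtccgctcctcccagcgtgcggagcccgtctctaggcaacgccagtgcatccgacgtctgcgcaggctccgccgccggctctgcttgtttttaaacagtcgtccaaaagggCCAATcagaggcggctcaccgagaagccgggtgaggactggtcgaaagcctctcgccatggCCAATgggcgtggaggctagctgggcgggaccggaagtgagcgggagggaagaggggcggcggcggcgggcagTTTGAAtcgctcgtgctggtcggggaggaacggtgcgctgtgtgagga
Kif23: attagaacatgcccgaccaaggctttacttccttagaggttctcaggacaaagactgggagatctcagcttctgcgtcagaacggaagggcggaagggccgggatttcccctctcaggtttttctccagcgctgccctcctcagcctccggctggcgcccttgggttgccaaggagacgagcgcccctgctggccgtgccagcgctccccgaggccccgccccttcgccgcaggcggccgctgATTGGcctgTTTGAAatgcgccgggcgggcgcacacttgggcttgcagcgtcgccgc

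Among 71 RefSeq promoters matched to 66 genes of the G2 phase, mitosis and cytokinesis list, 44 (62.0%) held TTTGAA on either strand and 54 (76.1%) held CCAAT. Over 32851 promoters of 27025 genes of the same length, the shares were 17.9% and 37.4%. Both letter strings stood in 38 (53.5%) of the G2 and mitosis promoters, against 6.95% of all promoters. The 65 promoters of the S phase and replication list held TTTGAA in 13.8% and CCAAT in 56.9%. The 37 promoters of the matrix list held them in 13.5% and 32.4%. A match describes the letters in this window and is not a measured binding site.

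Levels of the rule genes were set by the choice of the nuclei and say nothing more of their identity. RNA of Col3a1 was found in 94.1% of the 957 nuclei, of Col1a2 in 88.3% and of Dcn in 77.5%, all of which encode matrix proteins of fibroblasts. Pdgfra, the receptor for platelet-derived growth factor A that defines the lineage, was found in 17.6% of cycling and 13.3% of non-cycling nuclei. Mki67, a coat protein of mitotic chromosomes, was found in 69.8%, Top2a, which untangles replicated DNA, in 64.1%, and Neil3, a DNA repair glycosylase, in 23.9%. Summed over the nuclei of a group, Mki67 stood at 822 CPM (UMIs in each 1000000 UMIs, here without further scaling) in KO P10, 958 in Ctrl P10 and 860 in Ctrl P6, and Top2a at 661, 701 and 976. Pdgfra stood at 138 unscaled CPM in KO P10, 113 in Ctrl P10 and 180 in Ctrl P6.

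The same nuclei also held cardiomyocyte RNA, which goes against taking all of them for fibroblast nuclei. The 11 cardiomyocyte markers (among them Ttn, Ryr2, Myh6 and Tnnt2), none of them at 0, summed to 388 to 749 UMIs per 10000 in the KO P10 libraries, 324 to 445 in Ctrl P10 and 179 to 306 in Ctrl P6. The 10 fibroblast markers, 5 of them rule genes (Pdgfra, Col1a2, Col3a1, Dcn and Abca8a), summed to 52.2 to 112, 72.5 to 132 and 86.9 to 197 in the same groups. In the median cycling nucleus, cardiomyocyte markers made up 3.35% of UMIs in KO P10, 2.5% in Ctrl P10 and 0.620% in Ctrl P6, close to the 3.54%, 2.71% and 0.716% of non-cycling nuclei. In nuclei with at most 1 fibroblast UMI and cardiomyocyte markers at 3% of UMIs or more, called the cardiomyocyte class and chosen by this same share, the medians were 6.43%, 6.22% and 5.15%. A share under 3% was found in 575 of the 957 cycling nuclei (60.1%), namely 151 of 331 in KO P10, 197 of 359 in Ctrl P10 and 227 of 267 in Ctrl P6. These 575 are called cardiomyocyte-poor, and the 3% limit was set after seeing the data. Whether the remainder are fibroblast nuclei with free cardiomyocyte RNA, droplets with 2 nuclei, or cardiomyocyte nuclei with fibroblast RNA cannot be told apart, so the nuclei are called by their rule. Over the 9 libraries, endothelial markers summed to 12.9 to 24.8 UMIs per 10000, erythroid markers to 14.6 to 235, macrophage markers to 0.393 to 3.31, and epicardial and lymphocyte markers to at most 1.65 and 0.687, with Cd3e and Cd3g of T cells at 0 in every group.

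**Figure D1:**
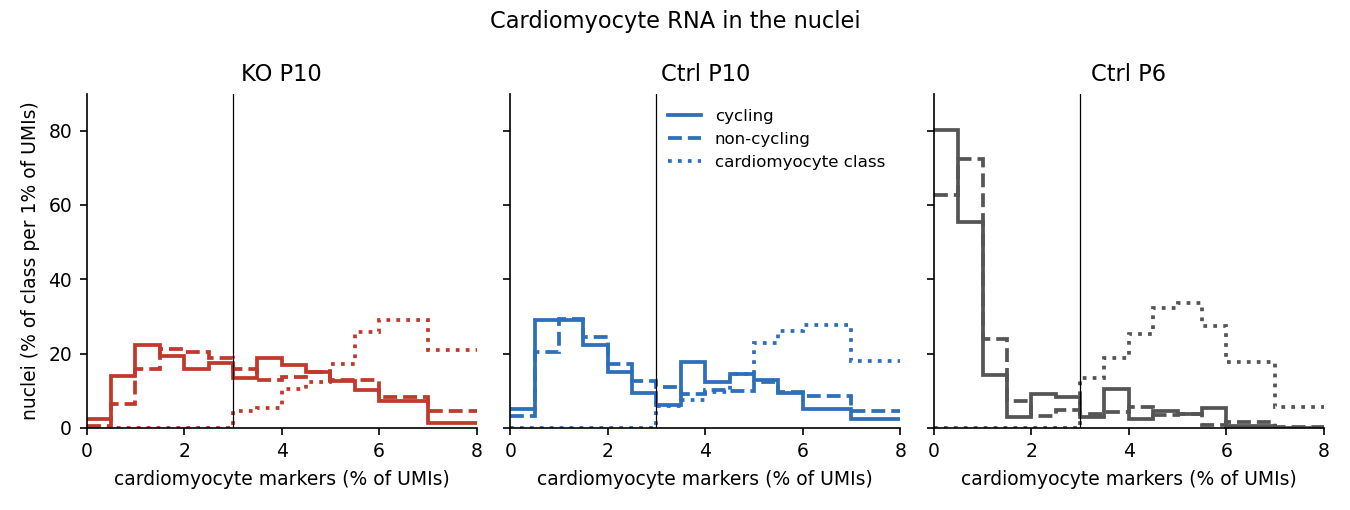
Distribution of the share of UMIs from 11 cardiomyocyte markers (horizontal axis, percent) in cycling nuclei (solid), non-cycling nuclei (dashed) and the cardiomyocyte class (dotted) of KO P10, Ctrl P10 and Ctrl P6; the vertical axis is the percent of the class per 1% of UMIs, nuclei above 8% are not drawn, and the vertical line stands at 3%. The solid and dashed outlines lie close together in each group, spread across the line in both P10 groups, and gather near 0 in Ctrl P6, where 227 of 267 cycling nuclei are under 3%.

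KO P10 library 2 stood apart from the other libraries. It shared 465 barcodes with KO P10 library 1, against 0 to 12 in the other 35 pairs of libraries, and of those 16 met the full rule and were left out. It kept 6 cycling nuclei with 11677 UMIs. The other 8 libraries held 32 to 179 cycling nuclei with 52693 to 314358 UMIs. Libraries held 2540100 to 5358489 UMIs outside mitochondrial genes. Xist, the RNA that coats the inactive X, reached 747, 0 and 1 UMIs in cycling nuclei of KO P10 libraries 1 to 3, 89, 0 and 0 in Ctrl P10 and 119, 581 and 418 in Ctrl P6, so every Ctrl P6 library was Xist-rich and the P10 groups were mixed. Mitochondrial RNA made up 1.12% to 2.93% of all UMIs of the cycling nuclei in Ctrl P6 and up to 19.8% at P10.

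Values of a group are given for libraries 1, 2 and 3 in that order. Esrra (chr19:6910977-6921813, minus strand, GRCm38) had 0, 1 and 0 UMIs in the cycling nuclei of KO P10 libraries, against 6, 11 and 5 UMIs in Ctrl P10 libraries and 3, 16 and 2 in Ctrl P6 libraries. Its ratio of KO P10 to Ctrl P10 was 0.0471 (95% exact interval 0.00114 to 0.291, counting error only), and it fell in KO P10 by edgeR's quasi-likelihood test with Benjamini-Hochberg adjustment (adjusted p = 0.0178). Non-cycling nuclei of the same libraries held 13, 8 and 7 Esrra UMIs in KO P10, against 32, 78 and 59 in Ctrl P10. Esrrg had 634, 57.5 and 326 CPM in KO P10 libraries, against 1028, 497 and 711 CPM in Ctrl P10 libraries, where CPM is from here on scaled by TMM factors unless called unscaled. Esrrg did not pass the threshold (edgeR, log2 -0.83 ± 0.40, adjusted p = 0.536). After a log2 change, ± gives a standard error computed from that change and the F statistic of its test, and not an SD over libraries. The Esrra call was lost under 6 of 16 alternatives. Such counts cover only alternatives that gave the gene an adjusted p, which DESeq2 did not for Esrra. In the annotation Esrra overlaps Trmt112 on the other strand. Which part of either gene was removed is not stated in the labels, so RNA from an undeleted part is counted here as well.

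The share of fibroblast-rule nuclei that were cycling was 15.9%, 0.936% and 12.8% in KO P10 libraries 1 to 3 (174 of 1096, 6 of 641 and 151 of 1176), 7.16%, 12.3% and 9.99% in Ctrl P10 (41 of 573, 179 of 1450 and 139 of 1392) and 8.84%, 22.9% and 21.5% in Ctrl P6 (32 of 362, 128 of 559 and 107 of 497). The exact Clopper-Pearson 95% intervals of KO P10 libraries 1 and 2, 13.8% to 18.2% and 0.344% to 2.03%, lay far apart, so libraries of that group differed by more than counting error. KO P10 averaged 9.88 ± 7.90% and Ctrl P10 9.83 ± 2.60% (SD, n = 3 each), a difference of 0.0554 percentage points that did not pass the exact two-sided permutation test (p = 1). Its sign rested on single libraries: it was 4.53 percentage points without KO P10 library 2, -2.94 without KO P10 library 1, -1.42 without KO P10 library 3 and -1.28 without Ctrl P10 library 1. Ctrl P10 was 7.93 percentage points lower than Ctrl P6, which averaged 17.8 ± 7.75%, and this did not pass the exact permutation test either (p = 0.3). With 3 libraries against 3 no p under 0.1 can be reached. Ctrl P6 libraries 2 and 3 lay above every P10 library and Ctrl P6 library 1 among the Ctrl P10 values, and without library 1 the difference was -12.4 percentage points.

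Cycling nuclei were deeper than non-cycling nuclei, with a median of 1073 against 817 UMIs, and a deeper nucleus reaches 2 cycling UMIs more easily. With every nucleus thinned to 500 UMIs, the shares were 6.99%, 0.506% and 7.44% in KO P10, 3.04%, 6.74% and 4.81% in Ctrl P10 and 4.57%, 13.5% and 12.4% in Ctrl P6. The libraries kept their order except for KO P10 libraries 1 and 3: KO P10 library 2 stayed lowest and Ctrl P6 libraries 2 and 3 highest. Among cardiomyocyte-poor nuclei the unthinned shares were 15.4%, 1.49% and 13.6% in KO P10, 5.26%, 12.7% and 10.4% in Ctrl P10 and 7.28%, 23.0% and 21.1% in Ctrl P6. KO P10 library 2 was also low outside the fibroblast-rule nuclei, with 0.289% of its cardiomyocyte class holding 2 cycling UMIs.

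**Figure D2:**
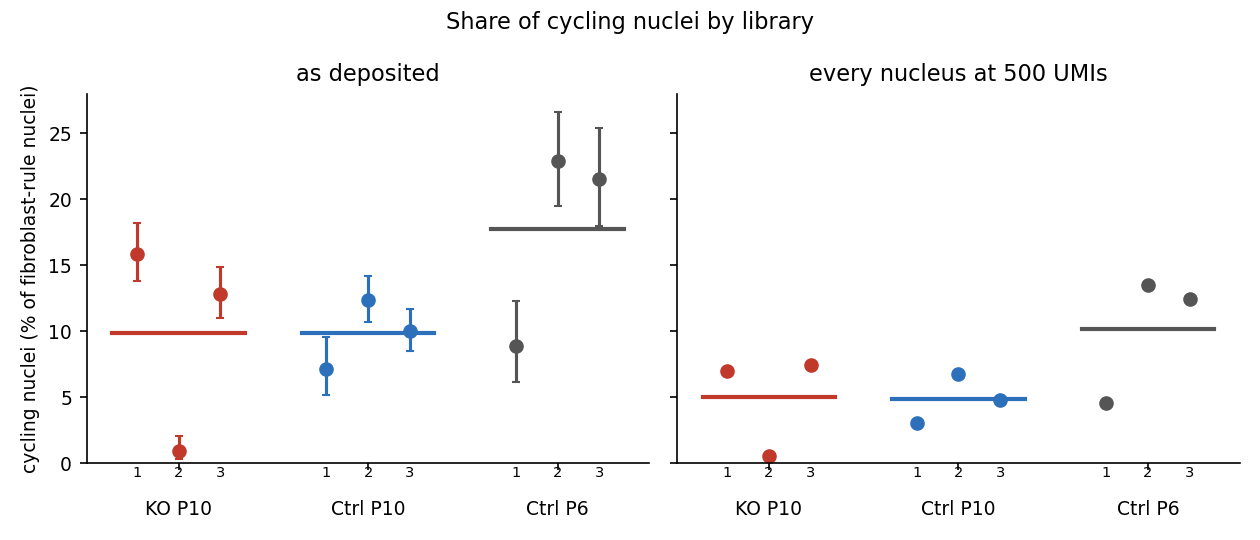
Cycling nuclei as a percent of fibroblast-rule nuclei (vertical axis) in libraries 1 to 3 of KO P10, Ctrl P10 and Ctrl P6, as deposited with exact 95% binomial intervals (left) and with every nucleus thinned to 500 UMIs (right); horizontal bars are group means. KO P10 library 2 is lowest in both panels, and Ctrl P6 libraries 2 and 3 are highest.

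Other classes of the same libraries, cut on values that the rule also used, are set beside these shares as a description. With every nucleus at 500 UMIs, the share with 2 or more cycling UMIs averaged 6.67% over the 9 libraries under the fibroblast rule and 4.30% in the cardiomyocyte class, and the fibroblast-rule share was the higher one in 8 of 9 libraries. Droplets with Malat1 under the limit averaged 3.99%, with the fibroblast-rule share higher in 7 of 9 libraries. Cardiomyocyte-poor nuclei averaged 7.90%.

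The cycling nuclei ranged from barely to strongly positive. Exactly 2 UMIs of the 8 cell cycle genes were found in 361 (37.7%), 3 UMIs in 171 (17.9%), and the highest count was 29. Just outside the threshold stood 1077 nuclei with 1 such UMI. At the fibroblast threshold, 113 cycling nuclei had exactly 4 fibroblast UMIs and 157 further nuclei with 3 would otherwise have met the rule. A list of 80 measured genes of G2 phase, mitosis and cytokinesis, none of them used by the rule, summed to 16.7 UMIs per 10000 in nuclei with 0 cycling UMIs, 28.6 with 1, 49.0 with 2, 84.5 with 3, 104 with 4 to 5 and 147 with 6 or more. A list of 70 S phase and replication genes summed to 15.0, 22.1, 26.5, 41.0, 39.9 and 42.2 over the same steps. Over all libraries together, the mitotic list thus climbed at every step and the replication list levelled off from 3 UMIs on. At the threshold itself the step did not hold in every library. Nuclei with 2 cycling UMIs held fewer mitotic-list UMIs per 10000 than nuclei with 1 in 3 of 9 libraries, namely KO P10 library 2 (7.51 with 2 and 11.9 with 1), Ctrl P10 library 1 (23.6 and 24.6) and Ctrl P6 library 1 (27.7 and 28.4). In KO P10 library 2 they held no more than the 7.78 of nuclei with 0.

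**Figure D3:**
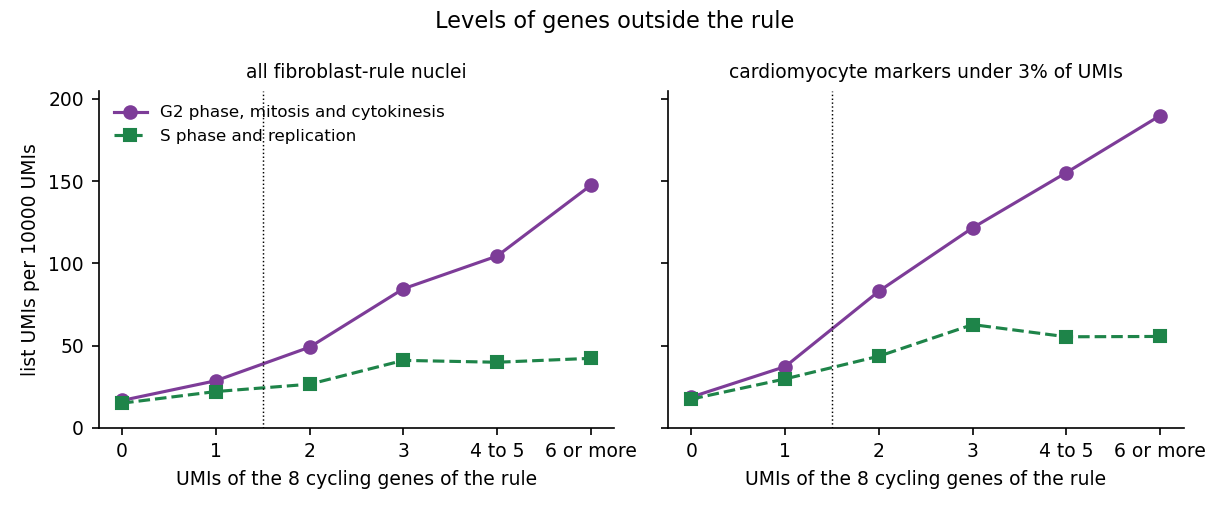
Summed level of the G2, mitosis and cytokinesis list (circles) and of the S phase and replication list (squares), in UMIs per 10000 (vertical axis), by the number of UMIs of the 8 cell cycle genes of the rule (horizontal axis), in all fibroblast-rule nuclei (left) and in cardiomyocyte-poor ones (right); the dotted line marks the threshold between 1 and 2. The mitotic list rises to 147 in all nuclei and to 190.0 in cardiomyocyte-poor nuclei with 6 or more such UMIs.

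Of the 957 nuclei, 844 (88.2%) held UMIs of both lists, 83 (8.67%) only of the mitotic list, 23 (2.40%) only of the replication list and 7 neither. Replication-list UMIs made up 30.4%, 27.6% and 23.7% of the UMIs of both lists in KO P10, 27.3%, 24.7% and 28.2% in Ctrl P10 and 31.6%, 27.3% and 31.1% in Ctrl P6. KO P10 averaged 27.2 ± 3.38% and Ctrl P10 26.7 ± 1.83% (SD, n = 3 each; exact permutation test, p = 0.9), and Ctrl P10 was 3.28 percentage points lower than Ctrl P6 (30.0 ± 2.39%; exact permutation test, p = 0.3). The groups overlapped in both comparisons.

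Set against the 6789 non-cycling nuclei of the same libraries, the cycling nuclei held more RNA of nearly every mitotic gene measured and somewhat less of many fibroblast and matrix genes, a difference that was smaller between nuclei of similar depth. The rule divided the nuclei on RNA of these same nuclei, so this contrast is a description: counts past an adjusted p of 0.05 (edgeR quasi-likelihood, library as block, Benjamini-Hochberg) only serve to count, and nothing is read from them. Of 8637 genes outside the rule, 318 were higher in cycling nuclei (3.68% of genes tested) and 262 lower (3.03%), 6.72% in either direction. Of 80 G2 and mitosis genes measured, 55 passed the filter on low counts, and these 55 were past the threshold and higher, with a median log2 difference of 2.44 against -0.03 over all genes. Without that filter, where 1.07% of 31464 genes were higher and 1.21% lower, the count was 79 of 80.

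Ckap2, which anchors spindle microtubules, had 101, 248 and 532 CPM in cycling nuclei (lowest, median and highest library), against 3.41, 32.0 and 86.1 CPM in non-cycling nuclei, a log2 difference of 3.12 ± 0.15. Cycling values were higher in 9 of 9 libraries and the ranges did not overlap. Its promoter is the first of the 4 shown, with both elements. Kif23, a kinesin of the central spindle and cytokinesis, had 50.7, 149 and 362 CPM in cycling nuclei (lowest, median and highest library), against 1.71, 16.8 and 31.6 CPM in non-cycling nuclei. Cenpf, a kinetochore protein, had 310.0, 523 and 743 CPM in cycling nuclei (lowest, median and highest library), against 10.2, 119 and 137 CPM in non-cycling nuclei. Ranges of both genes stood apart between the classes. Cenpe, the kinetochore motor whose promoter held no TTTGAA, had 101, 404 and 738 CPM in cycling nuclei (lowest, median and highest library), against 18.8, 71.8 and 102 CPM in non-cycling nuclei. It was higher in 9 of 9 libraries as well, with ranges that touched, and its log2 difference of 2.52 ± 0.13 lay between the 3.18 ± 0.19 of Kif23 and the 2.37 ± 0.13 of Cenpf. The largest difference among called genes belonged to Ndc80, a subunit of the kinetochore (log2 3.33 ± 0.24), which was at 0 in both classes of KO P10 library 2 and higher in the other 8. Other large differences were those of the kinesin Kif18b (3.28), Cdca2 (3.22), the abscission factor Cep55 (3.20), Kif2c (3.09), the kinase Mastl (3.08), the phosphatase Cdc25c (3.04), Nusap1 (2.97) and Kif22 (2.97).

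Of the 48 replication genes that passed the filter, of 70 measured, 33 were higher and none lower, with a median log2 difference of 0.84. Polq, a DNA polymerase of end joining, stood at 2.39 ± 0.20 and Rad54b, a recombination factor, at 2.51 ± 0.28 on the log2 scale. Atad2, a chromatin factor induced by E2F, had 50.7, 149 and 277 CPM in cycling nuclei (lowest, median and highest library), against 35.8, 53.0 and 80.5 CPM in non-cycling nuclei (log2 1.49 ± 0.16). The E2F repressor E2f7 (2.11), thymidine kinase Tk1 (2.01) and the histone methyltransferase Ezh2 (1.07) were higher too. Of 24 cyclins, inhibitors and exit genes that passed, 3 were higher, all of which restrain the cycle: the CDK4/6 inhibitors Cdkn2c (1.73 ± 0.25) and Cdkn2d (0.99) and the pocket protein Rbl1 (1.25). Gas1, a growth arrest gene, was lower (-0.51).

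Of 30 fibroblast genes outside the rule that passed the filter, of 31 measured, 16 were lower in cycling nuclei and none higher (median log2 -0.39). The matrix list gave 18 of 43 lower and none higher (median -0.37). Igfbp5, a binding protein of insulin-like growth factors (chr1:72857932-72874884, minus strand), had 0, 76.0 and 234 CPM in cycling nuclei (lowest, median and highest library), against 123, 187 and 414 CPM in non-cycling nuclei. It was lower in 9 of 9 libraries (log2 -1.27 ± 0.16), and stood at -1.48 in cardiomyocyte-poor nuclei and at -1.23 among nuclei of 1000 to 3000 UMIs. The mesenchymal cadherin Cdh11 had 42.3, 129 and 152 CPM in cycling nuclei (lowest, median and highest library), against 164, 188 and 253 CPM in non-cycling nuclei. Its ranges did not overlap (log2 -0.88 ± 0.16). Collagen I (Col1a1, -0.62 ± 0.14), elastin (Eln, -0.63 ± 0.14), the gelatinase Mmp2 (-0.60), the aggrecanase Adamts5 (-0.59), the basement membrane protein Nid1 (-0.54), matrix Gla protein (Mgp, -0.72 ± 0.13) and Mfap4 of elastic fibres (-0.85) were lower on the log2 scale as well. So were Pcdh9 (-0.71), Bicc1 (-0.64) and Dpt (-0.54), and among signals the growth factors Igf2 (-0.69 ± 0.13) and Tgfb2 (-0.52). In the myofibroblast list 2 of 15 were lower, among them Postn (-0.58).

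The largest differences among lower genes included those of the viral RNA sensor Ddx58 (-1.30), Pamr1 (-1.28 ± 0.25), Igfbp5, Ssc5d (-1.23), Srpx (-1.22), Rab33b (-1.21), Clec3b (-1.20), the muscarinic receptor Chrm3 (-1.20), Cd248 (-1.12), Pi16, a marker of adventitial fibroblasts (-1.08), and Radil (-1.08). The differences in fibroblast and matrix genes moved with depth. Between nuclei of 1000 to 3000 UMIs, where medians were 1461 in cycling and 1301 in non-cycling nuclei, 102 genes were higher (1.99%) and 36 lower (0.701%) of 5133 tested, with 1 fibroblast-list gene and 0 matrix genes lower. The list medians there were -0.17 for fibroblast and -0.09 for matrix genes on the log2 scale, against -0.08 over all genes, while the mitotic list stood at 2.65. Of the 580 genes past the threshold, 401 could be tested there, of which 106 were past it and 27 had the opposite sign. In cardiomyocyte-poor nuclei, where 3.46% of 6101 genes were higher and 2.69% lower, 9 fibroblast and 8 matrix genes were lower. Of 11 cardiomyocyte markers, 0 were past the threshold, with a median log2 of 0.12.

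**Figure D4:**
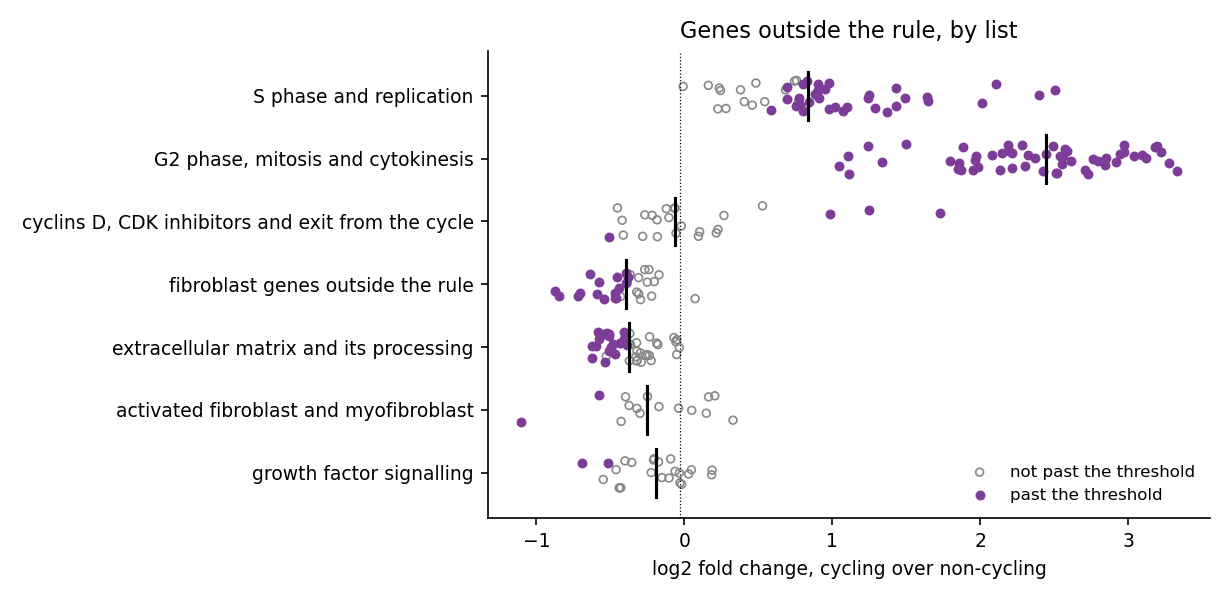
Log2 fold change of cycling over non-cycling nuclei (horizontal axis) for the genes of 7 lists that passed the filter on low counts (rows), with genes past an adjusted p of 0.05 filled, list medians as black bars, and the median of all genes as a dotted line. The mitotic genes lie farthest right around 2.44, the replication genes around 0.84, and the fibroblast and matrix genes a little left of the dotted line.

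Cycling nuclei of KO P10 held more RNA of Nppa, Acta1, Myl7 and Ctgf, and less of the dicarboxylate carrier Slc13a3, than those of Ctrl P10. Of 8338 genes tested in KO P10 against Ctrl P10 (edgeR quasi-likelihood, 1 sum per library, Benjamini-Hochberg), 34 rose (0.408%) and 31 fell (0.372%), 0.78% in either direction. In cardiomyocyte-poor nuclei, 6 of 4156 rose (0.144%) and 5 fell (0.12%). Among those that rose was Xist (edgeR, log2 2.54, adjusted p = 0.0318). In all cycling nuclei Xist had 747, 0 and 1 UMIs in KO P10 libraries and 89, 0 and 0 in Ctrl P10, and the part of sex was not tested. Genes past the threshold in both were 8, that is 12.3% of the 65 and 72.7% of the 11, and 31 of the 65 could not be tested in cardiomyocyte-poor nuclei. Without KO P10 library 2 or without KO P10 library 3, 28 genes passed, and without Ctrl P10 library 3, 14.

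Nppa, which encodes atrial natriuretic peptide (chr4:148000722-148002079, plus strand), had 2779.9, 21322 and 20165 CPM in KO P10 libraries, against 28.9, 1861 and 98.5 CPM in Ctrl P10 libraries. The lowest KO P10 library lay above the highest Ctrl P10 library, and the gene rose (log2 4.41 ± 0.59, adjusted p = 1.56e-09). In cardiomyocyte-poor cycling nuclei Nppa stood at 6919 ± 5065 unscaled CPM in KO P10 and 153 ± 155 in Ctrl P10 (SD, n = 3 each). In the cardiomyocyte class it stood at 8175 ± 5943 unscaled CPM in KO P10 and 219 ± 243 in Ctrl P10, so its level was of the same order there, and the part of free or mixed cardiomyocyte RNA in this rise was not tested. Skeletal actin, Acta1, had 282, 1782 and 1705 CPM in KO P10 libraries, against 0, 162 and 43.8 CPM in Ctrl P10 libraries. It rose as well, with no overlap (log2 3.78 ± 0.46, adjusted p = 5.39e-11). The atrial myosin light chain Myl7 had 86.4, 172 and 529 CPM in KO P10 libraries, against 28.9, 18.4 and 10.9 CPM in Ctrl P10 libraries, again without overlap (edgeR, log2 3.97 ± 0.53, adjusted p = 1.56e-09). Myl7 rested on 26, 3 and 102 UMIs in KO P10 and 2, 5 and 2 in Ctrl P10. Its call was lost without KO P10 library 3.

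Ctgf, a secreted matricellular protein induced by TGF-β and YAP, had 259, 345 and 285 CPM in KO P10 libraries, against 57.9, 70.0 and 10.9 CPM in Ctrl P10 libraries. These levels rested on 78, 6 and 55 UMIs in KO P10 and 4, 19 and 2 in Ctrl P10. The groups did not overlap and Ctgf rose (edgeR, log2 2.57 ± 0.44, adjusted p = 1.51e-05), in cardiomyocyte-poor nuclei by 2.35 (adjusted p = 0.0199). It lost the call under 1 of 17 alternatives, without Ctrl P10 library 3, and DESeq2 gave it no adjusted p. Its level in cardiomyocyte-poor cycling nuclei was 395 ± 237 unscaled CPM in KO P10 and 48.8 ± 42.4 in Ctrl P10, and in non-cycling nuclei 417 ± 175 unscaled CPM in KO P10 and 56.0 ± 12.8 in Ctrl P10. It was 1 of 15 myofibroblast genes tested that passed the threshold, 8 of the 15 were higher at an unadjusted p under 0.05 (333 of 8338 over all genes, 3.99%), and the median log2 was 0.95 against -0.02 over all genes. The list was chosen with earlier results of these data known, so these list values are a description. Elastin, Eln, had 933, 2874 and 2695 CPM in KO P10 libraries, against 478, 958 and 438 CPM in Ctrl P10 libraries. Its groups overlapped, since KO P10 library 1 lay below Ctrl P10 library 2, and it rose (log2 1.74 ± 0.45, adjusted p = 0.0245), but lost the call under 10 of 19 alternatives. Mgp, which keeps matrix from calcifying, had 591, 977 and 974 CPM in KO P10 libraries, against 232, 343 and 246 CPM in Ctrl P10 libraries. The groups did not overlap, and it rose (log2 1.56 ± 0.41, adjusted p = 0.0304), with the call lost under 12 of 19 alternatives. Without KO P10 library 2 the adjusted p was 0.108 for Eln and 0.0932 for Mgp. In cardiomyocyte-poor nuclei these 2 genes stood at 1.23 (adjusted p = 0.756) and 1.48 (adjusted p = 0.353). Elastin was 1 of 43 matrix genes and Mgp 1 of 30 fibroblast genes that passed.

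Slc13a3, a sodium-coupled carrier of succinate and other dicarboxylates (chr2:165405028-165473230, minus strand), had 3.32, 0 and 15.5 CPM in KO P10 libraries, against 174, 133 and 137 CPM in Ctrl P10 libraries. The groups, at 1, 0 and 3 UMIs against 12, 36 and 25, stood far apart and it fell (edgeR, log2 -4.05 ± 0.65, adjusted p = 2.03e-06). The call was kept under each of the 17 alternatives that gave it an adjusted p. DESeq2 put Slc13a3 at -4.11 on the log2 scale but gave no adjusted p. In cardiomyocyte-poor cycling nuclei it stood at 3.57 ± 6.18 unscaled CPM in KO P10 and 142 ± 4.22 in Ctrl P10. In the cardiomyocyte class it stood at 13.1 ± 4.47 unscaled CPM in KO P10 and 64.2 ± 7.12 in Ctrl P10, so its Ctrl P10 level was lower there than in the cycling nuclei. Ctrl P6 libraries held 19.3, 18.3 and 29.2 CPM.

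Gadd45g, a stress-induced regulator of growth arrest, had 159, 115 and 104 CPM in KO P10 libraries, against 14.5, 7.37 and 16.4 CPM in Ctrl P10 libraries. These levels rested on few UMIs, 48, 2 and 20 in KO P10 and 1, 2 and 3 in Ctrl P10. Gadd45g rose (edgeR, log2 3.42 ± 0.60, adjusted p = 1.76e-05). The nicotinamide riboside kinase Nmrk2 rose by 2.80 ± 0.50, the relaxin receptor Rxfp1 by 2.78 ± 0.46, the calcium-binding Efhd2 by 2.65 ± 0.49 and the antisense gene Gm13054 by 3.97 ± 0.64 on the log2 scale (adjusted p 3.75e-05, 4.71e-06, 5.58e-05 and 2.03e-06). Gm13054 (chr4:148001091-148004014, minus strand) overlaps Nppa on the other strand, and since the use of strand in counting is not given, its reads cannot be told apart from those of Nppa. In cardiomyocyte-poor nuclei Efhd2 stood at 0.98 (adjusted p = 0.999) and Nmrk2 at 5.75 (adjusted p = 0.0178), and Gadd45g, Rxfp1 and Gm13054 could not be tested. The calls of Nmrk2 and Efhd2 were lost without Ctrl P10 library 3, that of Rxfp1 without KO P10 library 1 and that of Gm13054 without KO P10 library 3. Rxfp1 was at 0 in KO P10 library 2 and at 442 and 119 CPM in KO P10 libraries 1 and 3. Fgf12, an intracellular partner of sodium channels, had 22 UMIs in KO P10 and 0 in Ctrl P10, at least 7.60-fold higher with a floor of 3 UMIs over the group. Keratin Krt18 had 23 UMIs in KO P10 and 2 in Ctrl P10 (ratio 11.9, 95% exact interval 2.94 to 104). The Fgf12 call was lost under 2 of 13 alternatives, without Ctrl P10 library 2 or 3, and the Krt18 call under 6 of 12, among them without KO P10 library 2 (adjusted p = 0.16).

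Among the other genes that fell, Gm30382 (log2 -3.20 ± 0.52) had 10, 0 and 2 UMIs in KO P10 libraries, against 27, 28 and 41 in Ctrl P10 libraries. Fndc5, the precursor of irisin (log2 -3.17 ± 0.70), had 2, 0 and 2 UMIs in KO P10 libraries, against 4, 17 and 19 in Ctrl P10 libraries. The Gm30382 call held under each of the 16 alternatives that gave it an adjusted p. The Fndc5 call was lost under 2 of 16, without KO P10 library 1 or Ctrl P10 library 3. DESeq2 gave neither gene an adjusted p. Like that of Fndc5, the other falls rested on few UMIs in KO P10, and they were less stable. The GDNF receptor Gfra1 had 0 UMIs in KO P10 and 14 in Ctrl P10, at least 4.51-fold lower. Cntnap2, a neural adhesion protein, had 1 UMI in KO P10 and 23 in Ctrl P10 (ratio 0.0450, 0.00109 to 0.277), and Tll2, a metalloprotease related to tolloid, 1 and 21 (ratio 0.0493, 0.00119 to 0.307). Gm44386 had 2 and 28 UMIs (ratio 0.0740, 0.00854 to 0.293), Fam81a 3 and 28 (ratio 0.111, 0.0216 to 0.359) and Wdr72 3 and 27 (ratio 0.115, 0.0223 to 0.374). Intervals are exact 95% intervals for counting error only. Calls were lost under 5 of 13 alternatives for Gfra1, 7 of 17 for Cntnap2, 10 of 16 for Tll2, 6 of 15 for Gm44386, 10 of 15 for Fam81a and 8 of 14 for Wdr72. Each of these 6 was lost without KO P10 library 2, with adjusted p of 0.181, 0.0918, 0.098, 0.0536, 0.0932 and 0.0959, and each was lost without some other libraries as well.

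None of 56 replication genes and none of 75 mitotic genes tested passed the threshold in KO P10 against Ctrl P10, by edgeR or by DESeq2. With 0.78% of all genes called, counts of 0 lie near the background and are no result about these lists. At an unadjusted p under 0.05 the counts were 0 of 56 and 2 of 75, against 724 of 8338 over all genes (8.68%), both lower, Cdca2 (log2 -1.04 ± 0.43, adjusted p = 0.393) and Kif22 (log2 -1.06 ± 0.48, adjusted p = 0.463). The list medians were -0.11 and -0.18 on the log2 scale, against -0.02 over all genes. The smallest p-values among replication genes belonged to Pola2 (log2 -1.26 ± 0.70, adjusted p = 0.643), Prim1 (log2 1.18 ± 0.67, adjusted p = 0.652) and Dnmt1 (log2 -0.78 ± 0.54, adjusted p = 0.778). None of 24 cyclins and inhibitors passed (1 at an unadjusted p under 0.05, median 0.16). The CDK inhibitor Cdkn1a had 39.9, 0 and 77.7 CPM in KO P10 libraries, against 14.5, 29.5 and 10.9 CPM in Ctrl P10 libraries (log2 1.34 ± 0.62, adjusted p = 0.483). None of 24 growth factor genes passed (3 at an unadjusted p under 0.05, median -0.02), with Kitl (log2 -1.24 ± 0.42, adjusted p = 0.182), Fgfr1 (log2 1.12 ± 0.43, adjusted p = 0.291) and Egfr (log2 -1.06 ± 0.49, adjusted p = 0.482) at the smallest p. On simulated counts with the same library sizes, this comparison recovered 70.0% of 4-fold and 1.01% of 2-fold changes, so most 2-fold changes were not detectable at this depth. The simulation changed only genes with many UMIs and gave every gene the same spread, so recovery among genes with few UMIs was not measured.

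Some ribosomal protein genes rose with the genotype, while erythroid sums overlapped between the groups and no erythroid or cardiomyocyte marker passed the threshold. The 5 erythroid markers summed to 34.6 to 235 UMIs per 10000 in KO P10 and 14.6 to 36.6 in Ctrl P10. Their means were 103 ± 114 in KO P10 and 24.6 ± 11.2 in Ctrl P10 (SD), so the KO P10 libraries differed widely. Of these markers, 0 of 4 tested were past the threshold, with a median log2 of 1.28. At an unadjusted p under 0.05, 4 of 4 were higher, against 3.99% of all genes. Ribosomal protein genes rose in 4 of 61 tested, against 0.408% of all genes (median log2 0.83). Reads of their near-identical pseudogenes cannot be assigned with certainty. Cardiomyocyte markers passed in 0 of 11 (1 at an unadjusted p under 0.05, median -0.01). The part of these in the genotype results was not tested.

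**Figure D5:**
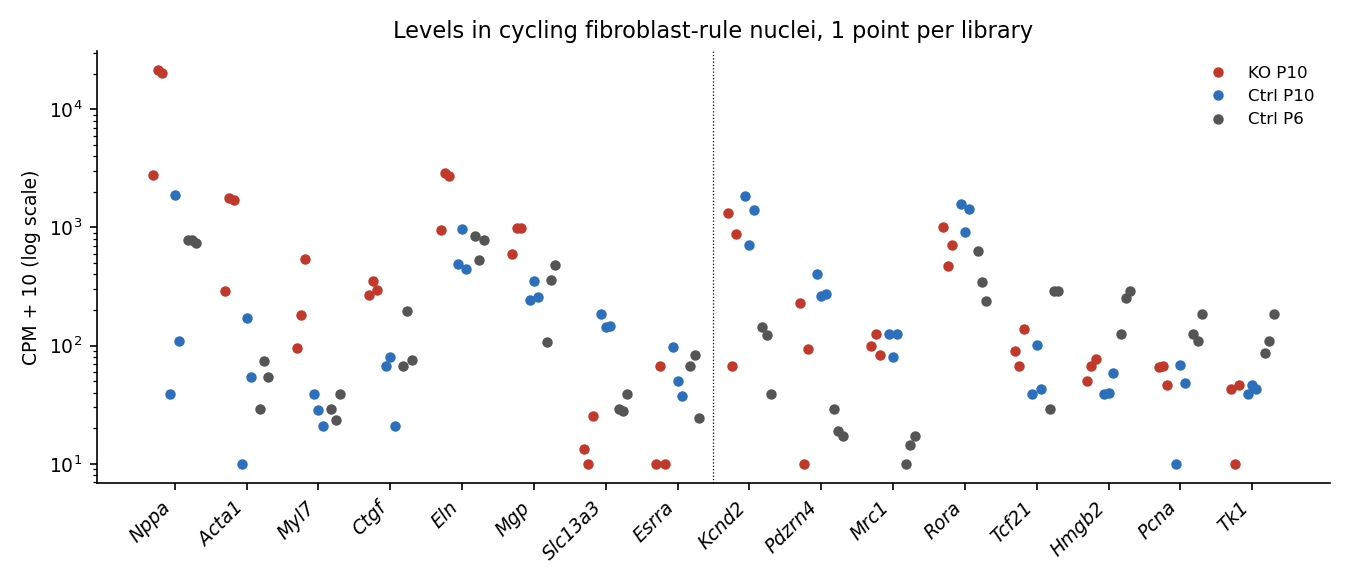
Levels of genes named in the text in cycling nuclei, as CPM + 10 on a logarithmic axis, with 1 point for each library of KO P10, Ctrl P10 and Ctrl P6; genes left of the dotted line were named in the genotype comparison and genes right of it in the comparison of stages. Nppa, Acta1, Myl7 and Ctgf lie higher in KO P10 than in Ctrl P10 and Slc13a3 lower, while Kcnd2, Pdzrn4, Mrc1 and Rora lie higher and Hmgb2 and Tk1 lower in Ctrl P10 than in Ctrl P6.

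Between stages, cycling nuclei of Ctrl P10 held less RNA of several replication genes, of the chromatin protein Hmgb2 and of ribosomal protein genes, and more of Rora, Mrc1, Tgfbr3 and the potassium channel Kcnd2, than those of Ctrl P6. Of 8338 genes tested (edgeR quasi-likelihood, Benjamini-Hochberg), 244 rose (2.93%) and 282 fell (3.38%) in Ctrl P10, 6.31% in either direction. In cardiomyocyte-poor nuclei, 49 of 4156 rose (1.18%) and 122 fell (2.94%), and 145 genes passed in both, 27.6% of the 526 and 84.8% of the 171. The count rested on single libraries: it was 139 without Ctrl P6 library 2, 166 without Ctrl P6 library 3, 163 without Ctrl P10 library 3 and 287 without Ctrl P10 library 1.

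Of 56 replication genes tested, 5 fell and none rose, against 3.38% of all genes that fell (median log2 -0.71 against -0.03 over all genes). At an unadjusted p under 0.05, 16 were lower (28.6%, against 9.55% of all genes). Tk1, which salvages thymidine for DNA synthesis, had 28.9, 36.8 and 32.8 CPM in Ctrl P10 libraries, against 77.2, 100.4 and 175 CPM in Ctrl P6 libraries. The groups did not overlap (log2 -1.82 ± 0.50, adjusted p = 0.0111). Pcna, the sliding clamp of DNA polymerases, had 0, 59.0 and 38.3 CPM in Ctrl P10 libraries, against 116, 100.4 and 175 CPM in Ctrl P6 libraries, also without overlap (log2 -1.63 ± 0.48, adjusted p = 0.0204). Rfc3, a subunit of the clamp loader, had 0, 25.8 and 5.47 CPM in Ctrl P10 libraries, against 77.2, 54.8 and 117 CPM in Ctrl P6 libraries (log2 -2.40 ± 0.63, adjusted p = 0.00675), and Uhrf1, which couples DNA methylation to replication, 0, 40.5 and 27.4 CPM in Ctrl P10 libraries, against 77.2, 86.7 and 124 CPM in Ctrl P6 libraries (log2 -1.72 ± 0.53, adjusted p = 0.0281). The primase subunit Prim1 had 0, 14.7 and 27.4 CPM in Ctrl P10 libraries, against 19.3, 77.6 and 94.9 CPM in Ctrl P6 libraries. Its groups overlapped, as Ctrl P6 library 1, with 1 UMI, lay below Ctrl P10 library 3, and it fell in the fit (edgeR, log2 -2.06 ± 0.61, adjusted p = 0.0215). Each of these 5 calls was lost without Ctrl P10 library 3 and without Ctrl P6 library 3, and the numbers of alternatives that lost the call were 4 of 18 for Tk1, 7 of 18 for Pcna, 2 of 16 for Rfc3, 8 of 18 for Uhrf1 and 9 of 17 for Prim1. In cardiomyocyte-poor nuclei 2 of 35 fell, against 2.94% of all genes there. They were Tk1 at -1.97 (adjusted p = 0.0372) and Uhrf1 at -2.00 (adjusted p = 0.0431), with Pcna at -1.27 (adjusted p = 0.176) and Prim1 at -1.95 (adjusted p = 0.132). DESeq2 called none of the 56.

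Of 75 mitotic genes tested, 2 fell and none rose (median log2 -0.55 against -0.03 over all genes). At an unadjusted p under 0.05, 16 were lower (21.3%, against 9.55% of all genes). A count of 2 of 75 is no larger a share than the 3.38% of all genes that fell. Hmgb2, a DNA-bending chromatin protein rich in dividing cells (chr8:57511907-57515999, plus strand), had 28.9, 29.5 and 49.2 CPM in Ctrl P10 libraries, against 116, 242 and 278 CPM in Ctrl P6 libraries. Every Ctrl P10 library lay below every Ctrl P6 library (log2 -2.61 ± 0.46, adjusted p = 1.5e-05), and the call held under each of 18 alternatives, at -2.78 (adjusted p = 0.00021) in cardiomyocyte-poor nuclei. Ube2c, the ubiquitin-conjugating enzyme of the anaphase-promoting complex, had 14.5, 103 and 43.8 CPM in Ctrl P10 libraries, against 96.5, 297 and 189.9 CPM in Ctrl P6 libraries. Its groups overlapped, as Ctrl P10 library 2 exceeded Ctrl P6 library 1, and it fell (log2 -1.70 ± 0.42, adjusted p = 0.00355), with the call lost under 3 of 18 alternatives. Cdk4, the kinase that starts the cycle with D cyclins, was the 1 of 24 cyclin and inhibitor genes that passed, and it fell (log2 -1.52 ± 0.42, adjusted p = 0.0116), with the call lost under 7 of 18 alternatives and at -1.57 (adjusted p = 0.0509) in cardiomyocyte-poor nuclei.

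Rora, a nuclear receptor of the circadian clock and lipid metabolism (chr9:68653786-69388246, plus strand), had 1578, 914 and 1433 CPM in Ctrl P10 libraries, against 618, 338 and 226 CPM in Ctrl P6 libraries. The groups did not overlap and Rora rose (log2 1.79 ± 0.44, adjusted p = 0.0035), in cardiomyocyte-poor nuclei by 1.93 (adjusted p = 0.00642), and lost the call under 3 of 19 alternatives, without Ctrl P10 library 3, Ctrl P6 library 2 or Ctrl P6 library 3. Tcf21, a transcription factor needed for the fibroblast lineage, had 28.9, 92.1 and 32.8 CPM in Ctrl P10 libraries, against 19.3, 278 and 278 CPM in Ctrl P6 libraries. Ctrl P6 library 1 lay below every Ctrl P10 library, but this order rested on 1 UMI there against 2, 25 and 6 in Ctrl P10. Tcf21 fell in the edgeR fit (log2 -1.88 ± 0.43, adjusted p = 0.00148) but not in cardiomyocyte-poor nuclei, where it stood at -1.33 (adjusted p = 0.0745). These were the 2 of 30 fibroblast genes that passed (median log2 0.39). Of 43 matrix genes, Ltbp1, which anchors latent TGF-β, rose (log2 2.05 ± 0.45, adjusted p = 0.00109) and the crosslinking enzyme Loxl2 fell (log2 -1.67 ± 0.40, adjusted p = 0.0028). In cardiomyocyte-poor nuclei Loxl2 stood at -1.50 (adjusted p = 0.0302) and Ltbp1 at 0.90 (adjusted p = 0.415). The matrix median was -0.51 in all cycling nuclei and -0.37 in cardiomyocyte-poor ones. Of 15 myofibroblast genes, smooth muscle actin Acta2 rose (log2 1.51 ± 0.45, adjusted p = 0.0201), with 0.14 (adjusted p = 0.919) in cardiomyocyte-poor nuclei, and Cyr61 fell (log2 -1.38 ± 0.44, adjusted p = 0.038), with -1.20 (adjusted p = 0.159) in cardiomyocyte-poor nuclei. Both calls were lost under 9 of 18 alternatives. The list median was -0.62. The counts of the cyclin, fibroblast and matrix lists, 1 of 24, 2 of 30 and 2 of 43, lay near the 6.31% of all genes called. The myofibroblast list gave 2 of 15 beside that same share.

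Of 24 growth factor genes, 3 passed, against 6.31% of all genes (median log2 0.12). The TGF-β co-receptor Tgfbr3 had 232, 133 and 175 CPM in Ctrl P10 libraries, against 57.9, 45.6 and 43.8 CPM in Ctrl P6 libraries, with no overlap, and rose (log2 1.84 ± 0.47, adjusted p = 0.00497). It stood at 1.85 (adjusted p = 0.0372) in cardiomyocyte-poor nuclei and lost the call under 3 of 18 alternatives. The growth hormone receptor Ghr rose (log2 1.46 ± 0.43, adjusted p = 0.0204) and the fibroblast growth factor receptor Fgfr1 fell (log2 -1.40 ± 0.42, adjusted p = 0.0244). Fgfr1 had 72.4, 66.3 and 76.6 CPM in Ctrl P10 libraries, against 174, 178 and 212 CPM in Ctrl P6 libraries. In cardiomyocyte-poor nuclei Ghr stood at 0.73 (adjusted p = 0.406) and Fgfr1 at -1.15 (adjusted p = 0.164), and the calls were lost under 7 of 19 and 10 of 18 alternatives. Esrrg rose between the stages (log2 2.00 ± 0.43, adjusted p = 0.000799), but stood at 1.10 (adjusted p = 0.174) in cardiomyocyte-poor nuclei.

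The largest rises included Kcnd2, the Kv4.2 potassium channel (chr6:21215503-21729805, plus strand), with 1838, 696 and 1406 CPM in Ctrl P10 libraries, against 135, 114 and 29.2 CPM in Ctrl P6 libraries. It rose (log2 3.87 ± 0.51, adjusted p = 1.6e-09), in cardiomyocyte-poor nuclei by 2.23 (adjusted p = 0.00128), and its level in the cardiomyocyte class was 2503 ± 705 unscaled CPM in Ctrl P10 and 374 ± 131 in Ctrl P6. Pdzrn4, a putative ubiquitin ligase, had 391, 251 and 263 CPM in Ctrl P10 libraries, against 19.3, 9.13 and 7.30 CPM in Ctrl P6 libraries (log2 4.77 ± 0.60, adjusted p = 1.91e-10). Mrc1, the mannose receptor of resident macrophages, had 48 UMIs in Ctrl P10 and 2 in Ctrl P6 (ratio 18.2, 95% exact interval 4.76 to 154). The 9 macrophage markers, with Mrc1 among them, summed to 1.65 to 3.01 UMIs per 10000 in Ctrl P10 and 0.393 to 1.14 in Ctrl P6, with 1 of 5 tested past the threshold, Cd163 at 0 in Ctrl P6, and their part in the rise of Mrc1 not tested. Ccdc85a had 27 UMIs in Ctrl P10 and 0 in Ctrl P6 (at least 6.81-fold higher), 6720464F23Rik 22 and 0 (at least 5.55-fold), Gm45670 11 and 0 (at least 2.77-fold), and Gm42892 26 and 1 (ratio 19.7, 3.23 to 807). The Gm45670 call was lost under 8 of 13 alternatives. In the GENCODE M21 annotation 6720464F23Rik overlaps Rabgap1l, Gm45670 overlaps Dhx32 and Gm42892 overlaps Palmd, so reads of these genes cannot be assigned with certainty.

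Sex-linked genes were among the largest changes. The Y-linked Ddx3y had 54 UMIs in Ctrl P10 and 0 in Ctrl P6, and Xist was lower in Ctrl P10 (log2 -2.84 ± 0.57, adjusted p = 0.000281). The Xist call was lost under 3 of 18 alternatives, among them without KO P10 library 2. Eif2s3y had 47 UMIs in Ctrl P10 and 1 in Ctrl P6, and Uty 60 and 3. Ctrl P10 library 1 was Xist-rich like the Ctrl P6 libraries and had 0 Ddx3y UMIs. Its levels were 1838 CPM of Kcnd2, 391 of Pdzrn4, 28.9 of Hmgb2 and 28.9 of Tk1, the last 2 resting on 2 UMIs each. Every Ctrl P6 library was Xist-rich, so sex and stage were partly mixed. The part of sex was not tested for any gene. The largest falls were mostly pseudogenes and short genes of ribosome and splicing factors. Gm6204 had 0 UMIs in Ctrl P10 and 37 in Ctrl P6 (at least 16.3-fold lower), Gm29328 0 and 21 (9.25-fold), Rpl10a-ps1 0 and 17 (7.49-fold), the splicing factor Lsm4 0 and 14 (6.17-fold), Rpl27 0 and 13 (5.73-fold) and Gm8730 0 and 12 (5.29-fold). Gm12254 had 1 UMI in Ctrl P10 and 39 in Ctrl P6 (ratio 0.0194), Gm7866 1 and 24 (0.0315), Lsm5 1 and 21 (0.0360) and Clca3a1 2 and 37 (0.0409). Over 61 ribosomal protein genes tested, 35 fell (median log2 -1.54), against 3.38% of all genes. In cardiomyocyte-poor nuclei 23 of 44 fell, against 2.94% of all genes there. Ribosomal protein RNA made up 0.394%, 0.933% and 0.584% of UMIs of cycling nuclei in Ctrl P10 and 1.45%, 1.74% and 1.75% in Ctrl P6. Cardiomyocyte markers rose in 3 of 11 (median 1.00), against 2.93% of all genes, and in 0 of 10 in cardiomyocyte-poor nuclei (median 0.49). The part of RNA quality and of cardiomyocyte RNA in the other changes between stages was not tested.

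Whether cycling and non-cycling nuclei differed in these effects was tested as an interaction in the same libraries. For the genotype effect, 0 of 11183 genes passed (0%; 319 at an unadjusted p under 0.05; DESeq2 0). For the stage effect 1 gene passed (0.00894%; 455 at an unadjusted p under 0.05; DESeq2 0). That gene was Csmd1, a membrane protein with complement control domains (chr8:15892537-17535586, minus strand). In cycling nuclei it had 82.8, 58.6 and 339 CPM in Ctrl P10 and 34.0, 69.8 and 40.7 CPM in Ctrl P6. In non-cycling nuclei it had 41.8, 44.1 and 46.5 CPM in Ctrl P10 and 71.7, 73.0 and 76.1 CPM in Ctrl P6. The difference of the stage effects was 2.22 ± 0.47 on the log2 scale (edgeR quasi-likelihood, adjusted p = 0.0322). Most of the cycling excess lay in Ctrl P10 library 3, and the call was lost without that library. It was also lost without Ctrl P6 library 1, 2 or 3, and without KO P10 library 1 or 3. Simulated interactions of 4-fold, again only in genes with many UMIs, were recovered in 5% of genes for the genotype effect and 6% for the stage effect. The lack of calls therefore does not show that both kinds of nuclei responded alike.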

How the data were processed

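Single-nucleus RNA was measured in 9 libraries, 3 each of KO P10, Ctrl P10 and Ctrl P6. The authors deposited UMI counts, whole numbers for each gene in each barcode, with no normalization. Reads were aligned with STAR 2.5.2a to mm10, per the submitters' processing notes; the counter, the annotation, the use of strand and the rule that kept 4000 or 3000 barcodes a library are not given in the sources used here. The members and the 7 gene lists were chosen with earlier results of these data known, so counts and medians of a list are a description.

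Counts were summed per library over cycling and over non-cycling nuclei and tested with edgeR 4.0.16 (R 4.3.3; glmQLFit and glmQLFTest, TMM, filterByExpr with min.count 5, Benjamini-Hochberg over all genes tested, threshold 0.05), with 1 fit of all 9 libraries by group, or, between classes, library as a block and the 23 rule genes left out. DESeq2 1.42.0 was an alternative. Shares were compared with exact two-sided permutation tests over libraries (scipy 1.17.1). Scrublet scores came from scanpy 1.11.5, and no nucleus was left out as a doublet in the main results; numpy 2.4.6, pandas 2.3.3 and matplotlib 3.10.9 did the rest. The scripts were tested on simulated counts. Sets of values are in the order of libraries 1 to 3.

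Genes were named by rule: rule genes, Esrra and Esrrg, the 10 largest rises and falls among called genes (12 between classes), and list members past the threshold, up to 6 a list by smallest p, or otherwise the 3 with the smallest p. Xist was added after its values were seen. Some genes that the rule names are not reported here. Gene positions are 1-based GENCODE M21 positions on GRCm38. Where strand was not used in counting, a gene and an antisense neighbour cannot be told apart.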

Additional observations from a re-analysis of the deposited data

Results flagged for a closer look

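Csmd1 differed between cycling and non-cycling nuclei in its change between Ctrl P10 and Ctrl P6, by 2.22 ± 0.47 on the log2 scale (edgeR quasi-likelihood interaction, adjusted p = 0.0322). In cycling nuclei it rested on 6, 16 and 63 UMIs in Ctrl P10 and 2, 16 and 6 UMIs in Ctrl P6. In cardiomyocyte-poor nuclei the difference was 2.35 (adjusted p = 0.774), and the call was lost under 10 of 17 alternatives.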

How the results depend on the processing

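For 115 called results of genes named by rule, 1921 pairs of a result and an alternative had an adjusted p. Of these pairs, 1622 kept the direction and the side of the threshold, 299 lost the call and 0 turned round. Leaving out KO P10 library 2 entered these pairs again as leaving out libraries under 10 cycling nuclei. Alternatives without an adjusted p were not counted, among them DESeq2 for Slc13a3, Ctgf, Myl7, Gadd45g and Gm30382. Of the 65 genes called for KO P10 against Ctrl P10, DESeq2 called 11. Over all 580 genes called between cycling and non-cycling nuclei, 27 of 401 tested turned round at 1000 to 3000 UMIs and 17 of 480 in cardiomyocyte-poor nuclei. Leaving out 1 library at a time, the difference in cycling share ranged from -2.94 to 4.53 percentage points for KO P10 against Ctrl P10 and from -12.4 to -5.36 for Ctrl P10 against Ctrl P6. The difference in replication share of phase UMIs ranged from -1.08 to 2.29 and from -4.65 to -2.25 points. For KO P10 against Ctrl P10 it turned to -0.929 with at least 3 cycling UMIs, -0.381 as a mean over nuclei and -1.46 in cardiomyocyte-poor nuclei, and between stages to 1.11 as a mean over nuclei. Genes called for KO P10 against Ctrl P10 (65) numbered 13 with DESeq2, 33 with min.count 10, 40 with no filter, 31 with at least 3 cycling UMIs, 35 without the highest 5% of Scrublet scores, 2 without nuclei of 10 or more cardiomyocyte UMIs, 11 in cardiomyocyte-poor nuclei, 28 without the library under 10 cycling nuclei and 14 to 87 without 1 library. Genes called between stages (526) numbered 122 with DESeq2, 258 with at least 3 cycling UMIs, 20 without nuclei of 10 or more cardiomyocyte UMIs, 171 in cardiomyocyte-poor nuclei and 139 to 636 without 1 library. Between cycling and non-cycling nuclei (580) the numbers were 109 without nuclei of 10 or more cardiomyocyte UMIs, 375 in cardiomyocyte-poor nuclei, 138 at 1000 to 3000 UMIs, 168 without the library block and 393 to 719 without 1 library. The genotype interaction gave 1 gene with at least 3 cycling UMIs and 0 without any 1 library, and the stage interaction gave 0 with DESeq2, no filter, no high Scrublet scores or cardiomyocyte-poor nuclei, and 0 to 1 without 1 library. Where a setting left fewer nuclei or libraries, fewer UMIs entered the fit; otherwise the cause was not tested. High Scrublet scores were found in 10.9% of cycling and 7.90% of non-cycling nuclei, and all limits were set with 957 nuclei, 6 of them in KO P10 library 2.

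The labels give same-numbered libraries only a number in common, though library 1 was the Xist-rich one in both P10 groups. Correlations of the deviations of same-numbered libraries ran from 0.0156 to 0.166 between KO P10 and Ctrl P10 and from -0.0342 to 0.0981 between Ctrl P10 and Ctrl P6. With a replicate block, 66 genes were called for the genotype and 515 between stages, the share differences were 0.0554 and -7.93 points (exact sign-flip permutation, p = 1 and 0.25, the smallest possible being 0.25) and the replication share differences 0.507 and -3.28 points (p = 1 and 0.25).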
